A study of Rattus norvegicus with 6 samples.

Results

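The genes described here encode ion channels of the potassium, sodium, calcium and chloride families and the proteins that bind them. They were taken by symbol: probe sets with a single annotated symbol that starts with Kcn, Scn, Cacn, Trpc, Trpm, Trpv, Clcn or Clic, or that is Piezo1 or Piezo2. This gave 227 probe sets for 145 genes, of 20826 probe sets for 14217 genes with 1 symbol. The starts take in more than pores selective for potassium, sodium or calcium. They also cover chloride channels, nonselective cation channels, auxiliary subunits, and Scnm1 and Trpc4ap, which are not channel subunits.

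RNA was measured on 6 rat arrays, 3 of the strain BDEsp-TDECC (TDECC below) and 3 of the strain BDEsp-TDESM (TDESM below). TDECC is a clonal cholangiocarcinoma (bile duct cancer) cell strain, and TDESM is a clonal strain of cancer-associated fibroblasts that the labels describe as overexpressing Acta2, an actin typical of myofibroblasts. Both were isolated from tumours of young adult male Fischer 344 rats after BDEsp cells, spontaneously transformed rat cholangiocytes, were placed into the bile duct. All 6 samples carry the same text on a collagen gel co-culture and on the TGF-beta inhibitors SB 431542 and LY2157299, and the labels do not say which cultures received them. Each strain is 1 clone, and the labels do not say whether the 3 arrays of a strain stand for 3 cultures. The p-values below therefore weigh only array-to-array spread, which may be technical.

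Array medians lay between 5.80 and 5.86 on the log2 scale, and having 3 arrays a strain limits the precision. Arrays correlated across genes at 0.968 to 0.976 within TDECC, at 0.995 to 0.998 within TDESM and at 0.788 to 0.823 between strains. All 8 epithelial markers were higher and all 8 fibroblast markers were lower in TDECC, and the epithelial list averaged 13.11 to 13.48 per TDECC array, against 4.41 to 4.53 per TDESM array. Of 9 neuron and glia markers 7 were near background in TDECC and 7 in TDESM. The same held for 9 and 8 of 9 skeletal and cardiac muscle markers, for 5 and 6 of 7 leukocyte markers, and for all 5 endothelial markers in both strains. Near background means a strain mean at or below 4.95, the 95th percentile of 29 probe sets for olfactory, vomeronasal and taste receptors, and it is no detection call.

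Ion channels let ions cross membranes down their gradients. In bile duct epithelium, potassium channels keep the cell interior negative, which drives chloride out through apical anion channels, and water follows into bile. In myofibroblasts and other contractile cells, voltage-gated calcium channels let in the calcium that drives contraction, and potassium channels oppose it by keeping the membrane polarised.

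The strains differed in 30 of the 145 channel genes. By limma, 14 genes were higher in TDECC and 16 were lower, at an adjusted p under 0.05 over all 14217 genes. That is 20.7% of the channel genes, against a background of 42.7% of all genes tested (20.6% higher and 22.1% lower in TDECC). Arrays of the strains did not overlap for 45 channel genes (31.0%), against 53.6% of all genes. The median log2 difference, TDECC minus TDESM, was 0.0067 over channel genes and -0.0033 over all genes. Rescaling the arrays to their added poly-A control transcripts moved the median of all genes by 1.22, and rescaling to housekeeping genes moved it by -0.22, so differences below are relative to the median gene. Of the 10 housekeeping genes, 4 were themselves higher in TDECC and 2 lower, with differences from 1.76 (Tfrc) to -0.89 (Gusb). They are thus not a flat reference between the strains. Where 1 strain was near background, a difference is between measured values only and is not an exact ratio of RNA.

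Many channel genes were dim. Of 145, 69 (47.6%) were near background in both strains, against 2942 of 14217 genes (20.7%), and these are treated as uninformative. Among the 69, 3 genes were past the threshold as higher (Kcnd2, Kcnk4 and Cacnb4) and 2 as lower (Clcn5 and Scn2a), with means of 3.02 to 4.52 in every case. With poly-A rescaling Clcn5 and Scn2a turned, at 0.67 and 0.53. Kcnd2 was lost without TDECC replicate 1 or 3 or any 1 TDESM replicate, Cacnb4 without TDECC replicate 2 or 3 or any 1 TDESM replicate, and Clcn5 without TDESM replicate 1 or 3. Of the remaining 76 genes, 56 were above background in both strains, 9 in TDECC alone and 11 in TDESM alone. Those 76 held 11 genes higher in TDECC, 14 lower and 51 not past the threshold. A gene above background in 1 strain only had to differ in level, so these counts are a description.

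**Figure D1:**
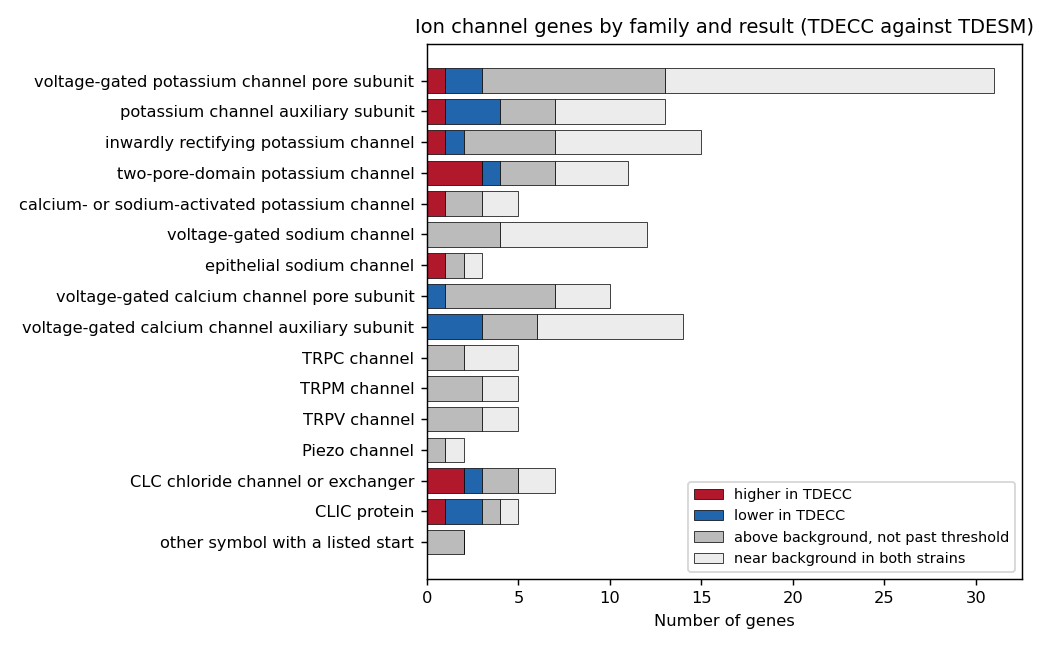
Number of channel genes (x axis) in each family (y axis), split into genes higher in TDECC, lower in TDECC, above background but not past the limma threshold, and near background in both strains. Genes past the threshold but near background in both strains fall in the last group. Voltage-gated potassium pore subunits make up 31 genes, of which 18 lie near background, and no gene of the TRP and Piezo families passed in the deposited scaling, against 4 lower with housekeeping centring and 16 higher with poly-A rescaling.

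**Figure D2:**
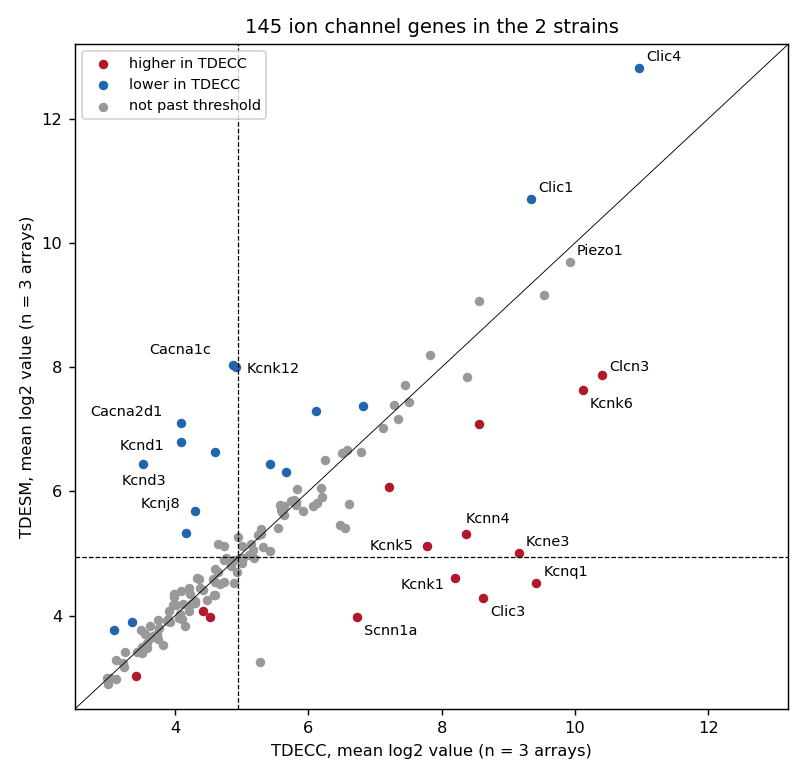
Mean log2 value of each of the 145 channel genes in TDECC (x axis) and TDESM (y axis), 3 arrays each, with the near-background level of 4.95 as dashed lines and equality as the solid line. Most genes lie near the line of equality, while Kcnq1, Kcne3, Kcnk1 and Clic3 stand to its right and Cacna1c, Kcnk12, Cacna2d1 and Kcnd3 above it.

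Promoters of 3 genes that head the results below are shown, 2 higher in TDECC and 1 lower. They were picked because each holds a site of the E-box or TEAD type. The promoters of Kcnk2, Kcnq5, Cacna2d1 and Kcnj8, genes also described below, held neither site and are not shown. RefSeq (build GRCr8) gave a promoter, 300 bases around the gene's start, for 106 of the 145 genes. The Kcne3 promoter lies at chr1:163935785-163936084 on the plus strand, that of Clcn3 at chr16:34137754-34138053 on the plus strand and that of Cacna1c at chr4:154051699-154051998 on the minus strand. Capitals mark the E-box CAGGTG and the TEAD site GGAATG, read on both strands, so that CACCTG and CATTCC are the same sites on the other strand.
Kcne3: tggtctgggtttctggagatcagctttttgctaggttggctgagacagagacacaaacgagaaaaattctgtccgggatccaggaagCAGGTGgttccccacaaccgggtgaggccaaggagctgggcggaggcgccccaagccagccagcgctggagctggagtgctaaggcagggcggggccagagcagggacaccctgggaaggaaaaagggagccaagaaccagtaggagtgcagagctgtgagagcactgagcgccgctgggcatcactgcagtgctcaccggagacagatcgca
Clcn3: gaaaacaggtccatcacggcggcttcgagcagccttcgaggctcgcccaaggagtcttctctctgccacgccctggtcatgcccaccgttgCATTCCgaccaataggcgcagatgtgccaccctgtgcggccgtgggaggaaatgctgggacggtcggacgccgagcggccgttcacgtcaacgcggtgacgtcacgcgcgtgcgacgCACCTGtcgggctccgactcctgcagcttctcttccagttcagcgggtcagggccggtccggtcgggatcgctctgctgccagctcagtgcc
Cacna1c: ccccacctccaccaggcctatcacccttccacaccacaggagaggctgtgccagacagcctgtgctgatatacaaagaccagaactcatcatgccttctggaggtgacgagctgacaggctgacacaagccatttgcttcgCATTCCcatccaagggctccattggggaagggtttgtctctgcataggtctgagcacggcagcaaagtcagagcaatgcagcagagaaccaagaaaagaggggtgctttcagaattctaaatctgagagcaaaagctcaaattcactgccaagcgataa

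The E-box stands in the promoters of Kcne3 and Clcn3, both higher in TDECC, and the TEAD site in those of Clcn3 and Cacna1c, which went in opposite directions. Among genes with a promoter in the table, the E-box was in 4 of 8 genes higher in TDECC (Clcn3, Kcnd2, Kcne3 and Kcnk4) and in 1 of 13 lower ones (Cacnb3). Of these, Kcnd2 and Kcnk4 were near background in both strains and so are uninformative. It was in 24 of the 106 channel promoters and in 18.7% of all 27457 promoters. The TEAD site was in 12 of 106 and 13.9% of all, the AP-1 site TGANTCA in 5 of 106 and 7.33%, and the CArG box of serum response factor in 0 of 106 and 1.64%. The median GC content was 61.2% over the channel promoters and 52.3% over all. A match is a letter match only, and no factor's binding was measured.

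Voltage-gated potassium channels open on depolarisation and let potassium leave the cell. Of 31 pore subunits 2 were higher in TDECC, among them Kcnd2, near background in both strains, and 2 were lower. In all, 18 of the 31 were near background. Kcnq1, a pore subunit of cardiac muscle and secretory epithelia, read 8.83, 9.74 and 9.68 in TDECC, against 4.36, 4.87 and 4.35 in TDESM. Every TDECC array stood far above every TDESM array, and TDESM was near background. The log2 difference was 4.89 (SE 0.28, adjusted p = 1.22e-05), and with TDESM near background it gives no exact fold.

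Kcne3 encodes a small beta subunit that binds Kcnq1 and holds the channel open in intestinal epithelium. It read 8.83, 10.28 and 8.36 in TDECC, against 5.25, 5.01 and 4.77 in TDESM. The groups did not overlap, and TDECC replicate 2 was the highest array. The difference was 4.15 (SE 0.46, adjusted p = 3.91e-04), and the other probe set of Kcne3 differed by 0.24 and did not pass. Both subunits of this channel were thus higher in TDECC.

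Lower in TDECC were Kcnd1 and Kcnd3, pore subunits of the fast, transient A-type current. Kcnd3 read 3.70, 3.37 and 3.50 in TDECC, against 6.41, 6.69 and 6.24 in TDESM. Kcnd1 read 4.04, 4.22 and 4.02 in TDECC, against 6.56, 6.86 and 6.94 in TDESM. Both were near background on every TDECC array and clearly above it on every TDESM array. Their differences were -2.92 (SE 0.16, adjusted p = 1.05e-05) and -2.69 (SE 0.14, adjusted p = 9.16e-06). A further Kcnd3 probe set differed by -1.69 and the third by 0.04.

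Of 13 auxiliary potassium subunits 1, Kcne3, was higher in TDECC and 3 were lower. Kcnip3, a calcium-binding partner of Kcnd channels also known as a transcriptional repressor, differed by -0.56 (SE 0.11, adjusted p = 0.00583). The other Kcnip3 probe set differed by -0.46 and did not pass. Kcnab2, a cytoplasmic beta subunit, differed by -0.66 (adjusted p = 0.00573), and with the mean of its 4 probe sets by -0.09. Kcnmb4, a beta subunit of the large-conductance calcium-activated channel, read 7.04, 5.40 and 5.91 in TDECC, against 7.29, 7.26 and 7.31 in TDESM. Its difference of -1.17 (adjusted p = 0.0453) was not stable: without TDECC replicate 2 or 3, or any 1 TDESM replicate, adjusted p was 0.0941 to 0.125. The signs of Kcnip3, Kcnab2 and Kcnmb4 turned when arrays were rescaled to the poly-A controls, at 0.66, 0.56 and 0.05.

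The tandem-pore-domain family (K2P) forms leak channels that set the resting potential. Of 11 genes 4 were higher in TDECC and 1 was lower, and 3 of the 4 were above background. Kcnk1 read 7.82, 8.22 and 8.55 in TDECC, against 4.55, 4.55 and 4.72 in TDESM. Kcnk5, an alkaline-sensitive channel of epithelia, read 8.12, 7.50 and 7.73 in TDECC, against 5.19, 5.19 and 4.97 in TDESM. Kcnk6 read 10.54, 10.20 and 9.60 in TDECC, against 7.59, 7.61 and 7.70 in TDESM. All 3 genes had every TDECC array above every TDESM array. Kcnk1 differed by 3.59 (SE 0.20, adjusted p = 9.99e-06), Kcnk5 by 2.67 (SE 0.18, adjusted p = 3.09e-05) and Kcnk6 by 2.48 (SE 0.24, adjusted p = 1.73e-04). The other probe set of Kcnk6 also passed, at 1.66.

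Kcnk12, which gives little or no current when expressed alone, went the other way. It read 4.88, 5.00 and 4.86 in TDECC, against 7.82, 7.89 and 8.28 in TDESM, a difference of -3.08 (SE 0.15, adjusted p = 6.42e-06). TDECC was near background and TDESM well above it.

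Kcnk2, the stretch- and lipid-sensitive leak channel TREK-1, depends on which probe set is read. The brightest one, which stands for the gene, differed by -0.26 (adjusted p = 0.251), with 7.12, 7.61 and 7.61 in TDECC against 7.69, 7.72 and 7.71 in TDESM. The other read 3.08, 3.20 and 3.32 in TDECC, against 9.85, 10.02 and 10.28 in TDESM. Its difference of -6.85 (SE 0.15, adjusted p = 2.33e-07 over 31042 probe sets) is set against TDECC values near background and gives no exact fold. Kcnq5, a subunit of the slow M-type potassium current, showed the same split. Its probe sets differed by -4.68, -0.08 and -0.05. The first of these read 3.17, 3.26 and 3.02 in TDECC, against 7.82, 7.84 and 7.83 in TDESM (adjusted p = 3.61e-07). Both probe sets were singled out after their values were seen, and which transcripts each probe set reads was not tested. Each kept its direction and passed without any 1 array.

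**Figure D3:**
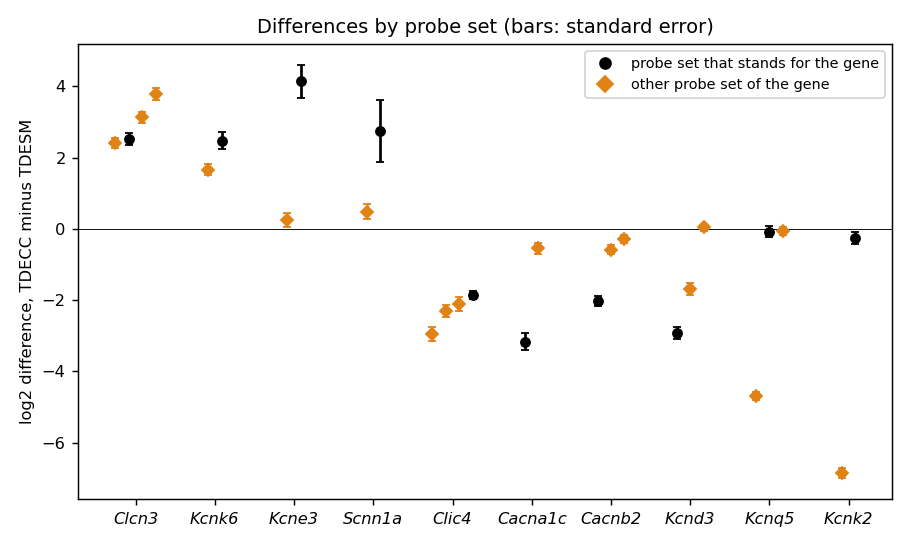
Log2 difference, TDECC minus TDESM (y axis), of each probe set of 10 channel genes (x axis), with standard errors from limma; the black circle is the probe set that stands for the gene and the diamonds are the others. All probe sets of Clcn3 (2.41 to 3.78) and of Clic4 (-2.95 to -1.86) passed, each gene in 1 direction. Those of Kcnk2 lie at -6.85 and -0.26 and those of Kcnq5 at -4.68, -0.08 and -0.05.

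Over all 227 probe sets 43 passed (18.9%, against 36.9% of 31042), 19 higher and 24 lower in TDECC. Of 52 genes with more than 1 probe set, 39 had probe sets that gave 1 result throughout. Among these 39, every probe set passed only for Cacna1c, Clcn3, Clic4 and Kcnk6, and none passed for the others. The remaining 13 genes had some probe sets that passed and some that did not. No gene had opposite results. Arrays of the strains did not overlap for 70 channel probe sets (30.8%, against 48.9% of all). Differences between transcripts of a gene were not tested. The mean of a gene's probe sets gave smaller differences for Kcne3 (2.20), Scnn1a (1.62), Clcn6 (0.72), Cacna1c (-1.86), Kcnd3 (-1.52), Cacnb2 (-0.96) and Clcn4 (-0.60), all still past the threshold. It gave -3.56 for Kcnk2, which then passed.

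Some potassium channels open when intracellular calcium or sodium rises. Of 5 such genes, among them the sodium-activated Kcnt1, 1 passed by limma, and 2 were near background. Kcnn4, the intermediate-conductance channel that supports chloride secretion in epithelia, read 8.77, 9.53 and 6.77 in TDECC, against 5.08, 5.29 and 5.59 in TDESM. The groups did not overlap, though the TDECC arrays were 2.76 apart. The difference was 3.04 (SE 0.65, adjusted p = 0.00800). Kcnma1, the large-conductance channel of smooth muscle, was near background in both strains, at 3.50 in TDECC and 3.49 in TDESM. Kcnn2 is not analysed here.

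Inward rectifiers hold the membrane near the potassium potential. Of 15 genes 1 was higher in TDECC and 1 lower, and 8 were near background. Kcnj14 read 7.15, 7.07 and 7.42 in TDECC, against 5.98, 6.05 and 6.16 in TDESM (difference 1.15, SE 0.14, adjusted p = 5.31e-04). Kcnj8, the pore of the ATP-sensitive channel of vascular smooth muscle and pericytes, read 4.03, 4.50 and 4.35 in TDECC, against 5.40, 5.53 and 6.11 in TDESM. Its difference was -1.39 (SE 0.22, adjusted p = 0.00220), or -0.17 with poly-A rescaling, which did not pass. Abcc9, the sulfonylurea receptor that assembles with Kcnj8, read 3.83, 3.07 and 2.94 in TDECC, against 7.19, 7.24 and 7.19 in TDESM (difference -3.93). Pore and receptor were both lower in TDECC.

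Voltage-gated sodium channels carry the upstroke of action potentials. Of 12 genes 0 were higher in TDECC and 1, Scn2a, was lower by limma, near background in both strains, while 8 were near background. At an unadjusted p under 0.05, Scn2a, Scn3b and Scn7a passed. Scn7a, a sodium-sensing relative of these channels, read 3.63, 7.17 and 5.02 in TDECC, against 3.27, 3.42 and 3.08 in TDESM, and did not pass (difference 2.02, adjusted p = 0.0828). It passed without TDECC replicate 1.

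The epithelial sodium channel takes up sodium across absorbing epithelia and needs its alpha subunit. Scnn1a, that subunit, read 6.02, 8.95 and 5.21 in TDECC, against 3.84, 4.23 and 3.87 in TDESM. TDESM was near background, and TDECC replicate 2 stood far above the other TDECC arrays. The difference was 2.75 (SE 0.88, adjusted p = 0.0413), or 1.64 without TDECC replicate 2 (adjusted p = 0.00417). The result was lost when 1 TDESM array, whichever it was, was left out (adjusted p = 0.0971 to 0.121), as it was with trend and robust eBayes or with housekeeping centring. Its other probe set differed by 0.49 and did not pass. Scnn1b differed by -0.10 and Scnn1g by -0.22, neither past the threshold.

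Voltage-gated calcium channels couple depolarisation to calcium entry. Several genes of an L-type channel were lower in TDECC: its pore Cacna1c, the alpha2delta subunit Cacna2d1 and the beta subunits Cacnb2 and Cacnb3. Of these, Cacnb3 turned with poly-A rescaling. Cacnb1, another beta subunit, was above background in both strains and did not pass, with its probe sets at -0.13 and -0.15. Cacna1c read 4.49, 4.68 and 5.42 in TDECC, against 7.97, 8.07 and 8.06 in TDESM. Cacna2d1, also the binding site of gabapentin, read 3.52, 4.14 and 4.59 in TDECC, against 7.31, 7.09 and 6.89 in TDESM. Cacnb2 read 4.75, 4.36 and 4.70 in TDECC, against 6.62, 6.69 and 6.58 in TDESM. TDECC means of these 3 genes were near background, and no array of 1 strain reached the other strain's range. The differences were -3.17 (SE 0.24, adjusted p = 5.60e-05) for Cacna1c, -3.01 (SE 0.27, adjusted p = 1.40e-04) for Cacna2d1 and -2.03 (SE 0.14, adjusted p = 3.60e-05) for Cacnb2.

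Cacnb3 was above background in both strains, with 5.62, 5.22 and 5.44 in TDECC, against 6.37, 6.31 and 6.62 in TDESM. Its difference was -1.01 (SE 0.15, adjusted p = 0.00178), or 0.21 with poly-A rescaling. Of 8 smooth muscle and pericyte markers 0 were higher and 6 lower in TDECC by limma, among them Cspg4, near background in both strains. Myh11 (0.33) and Rgs5 (-0.07, near background in both strains) did not pass. The list averaged 5.27 to 5.55 per TDECC array, against 7.79 to 7.83 per TDESM array. Its largest differences were those of Tagln (-8.71) and Cnn1 (-6.25). The list's part in the lower calcium channel and Kcnj8 values was not tested. The other Cacna1c probe set differed by -0.54 and passed (adjusted p = 0.0351), and the other 2 of Cacnb2 by -0.58 and -0.27. Cacna1c was the only pore subunit of 10 to pass at the gene level, and 3 of the 10 were near background. Another probe set of Cacna1d, an L-type pore of endocrine cells, chosen after its values were seen, was higher in TDECC by 1.20 (adjusted p = 0.00701). Of 14 genes grouped as auxiliary by symbol alone, Cacng genes among them, 3 were lower and 1, Cacnb4 near background, was higher in TDECC.

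**Figure D4:**
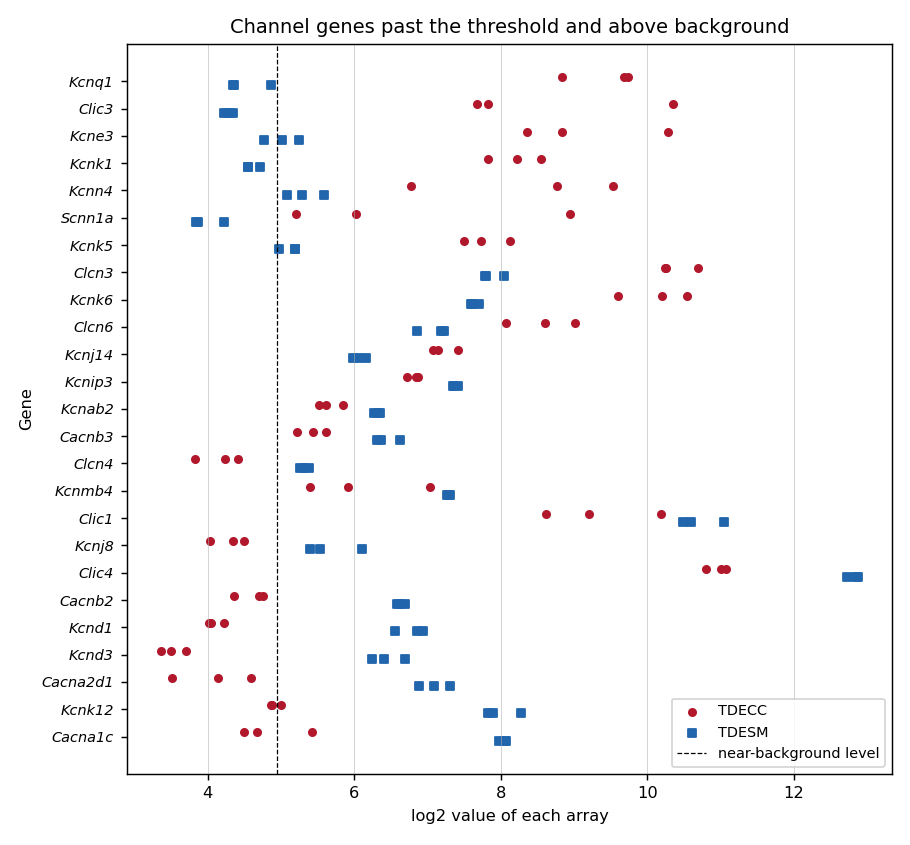
Log2 value (x axis) on each TDECC array (circles) and each TDESM array (squares) for the 25 channel genes (y axis) past the threshold and above background in at least 1 strain, ordered by difference; the dashed line is the near-background level. Genes at the top, from Kcnq1 to Kcnj14, are higher in TDECC, and those at the bottom, from Kcnd3 to Cacna1c, are near background or close to it in TDECC.

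No gene of the TRP or Piezo families passed by limma: 0 of 5 TRPC, 0 of 5 TRPM, 0 of 5 TRPV and 0 of 2 Piezo genes, with 1 of the 17, Trpv6, at an unadjusted p under 0.05. That count of 0 depends on the scaling and on single arrays: 4 were lower with housekeeping centring (Piezo2, Trpc5, Trpm1 and Trpm8, of which Trpm1 was above background), and 16 were higher with poly-A rescaling. Of the 10 genes used for the housekeeping centring, 6 themselves differed by limma. Without TDECC replicate 1, Trpm4 and Trpv6 were higher. Most TRP and Piezo channels are nonselective cation channels gated by receptors, temperature, lipids or stretch. Piezo1, a mechanically gated channel, was well above background in both strains, at 9.85, 10.29 and 9.61 in TDECC and 9.64, 9.79 and 9.63 in TDESM. Its difference was 0.23, with a 95% interval of -0.22 to 0.68. Trpm7, a channel fused to a kinase that carries magnesium and calcium, read 8.27, 8.28 and 9.12 in TDECC, against 9.37, 9.03 and 8.77 in TDESM. The groups overlapped, with a difference of -0.50 (interval -1.15 to 0.15), and its other probe set differed by 0.26. The gene passed without TDECC replicate 3 (-0.78, adjusted p = 0.0218).

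Trpc1 differed by 0.10 (interval -0.21 to 0.42), with TDECC at 7.12 and TDESM at 7.02. Trpv6, a calcium uptake channel of epithelia chosen after its values were seen, read 5.90, 7.15 and 6.37 in TDECC, against 5.62, 5.77 and 4.99 in TDESM. The groups did not overlap, and the difference of 1.01 did not pass (adjusted p = 0.0530). It passed without TDECC replicate 1 and with trend and robust eBayes (adjusted p = 0.0426). Trpc4ap, an adaptor first found as a Trpc4 partner, read 9.71, 9.51 and 9.37 in TDECC, against 9.06, 9.03 and 9.37 in TDESM. Its difference of 0.38 did not pass (adjusted p = 0.0900), and under cyclic loess it did (adjusted p = 0.0362). Near background in both strains were Trpv4, an osmotically activated channel of cholangiocyte cilia, Trpc6 and Piezo2. Trpv4 stood at 4.42 in TDECC and 4.41 in TDESM, Trpc6 at 3.50 in TDECC and 3.40 in TDESM, and Piezo2 at 3.49 in TDECC and 3.77 in TDESM.

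The CLC family holds plasma membrane chloride channels and endosomal exchangers that trade chloride for protons. Of 7 genes 2 were higher in TDECC and 2 lower, among the lower Clcn5, near background in both strains. Clcn3, an exchanger of endosomes, read 10.24, 10.26 and 10.69 in TDECC, against 8.05, 7.80 and 7.78 in TDESM. The strains were far apart, and all 4 probe sets passed with differences of 2.41 to 3.78. The difference of the gene was 2.52 (SE 0.17, adjusted p = 2.66e-05), or 5.74-fold. Clcn6, a late endosomal exchanger, differed by 1.48 (SE 0.25, adjusted p = 0.00279), and its other probe set by -0.04. Clcn4, which pairs with Clcn3 in endosomes, differed by -1.16 (SE 0.17, adjusted p = 0.00141), or 0.06 with poly-A rescaling, with TDECC near background. The other Clcn4 probe set, near background in both strains, differed by -0.03 and did not pass.

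CLIC proteins exist in soluble and membrane-inserted forms, and their channel role is debated. Of 5 genes 1 was higher in TDECC and 2 were lower. Clic4, induced during myofibroblast differentiation, read 11.00, 11.08 and 10.80 in TDECC, against 12.85, 12.87 and 12.73 in TDESM. The ranges were well apart, and all 4 probe sets passed with differences of -2.95 to -1.86. The difference of the gene was -1.86 (SE 0.13, adjusted p = 3.08e-05), or -0.64 with poly-A rescaling, which did not pass. Clic1 read 9.20, 10.18 and 8.62 in TDECC, against 10.49, 10.59 and 11.04 in TDESM, and differed by -1.37 (adjusted p = 0.0252). That result was lost without TDECC replicate 1 or 3 or any 1 TDESM replicate (adjusted p = 0.0515 to 0.0977), and with poly-A rescaling the difference was -0.15.

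Clic3 read 7.83, 10.35 and 7.68 in TDECC, against 4.35, 4.22 and 4.29 in TDESM. Every TDESM array was near background and every TDECC array above it. The difference was 4.33 (SE 0.67, adjusted p = 0.00184), or 3.47 without TDECC replicate 2.

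The TDECC arrays spread further apart than the TDESM arrays. Among channel genes above background in the strain, the median SD was 0.24 over 65 genes in TDECC and 0.15 over 67 genes in TDESM. Over all genes above background it was 0.28 in TDECC and 0.12 in TDESM. In TDECC 4 of the 65 genes spanned at least 2 on the log2 scale, Clic3, Kcnn4, Scnn1a and Scn7a, and each was highest on replicate 2. No channel gene spanned as much in TDESM. Of all genes above background, 3.35% spanned that much in TDECC and 0.0% in TDESM. Which replicate was highest was not counted over all genes. Snap25, a neuronal marker, also read highest on that array, with 4.91, 9.67 and 6.06 in TDECC, against 3.95, 3.98 and 3.81 in TDESM. It did not pass (adjusted p = 0.0681). Of the other 8 neuron and glia markers, Mbp, a myelin protein, was higher in TDECC, with 8.81, 8.06 and 8.26 in TDECC, against 5.36, 5.23 and 5.00 in TDESM, and was highest on replicate 1. Tubb3, a neuronal tubulin, was lower by limma, at 4.79 in TDECC and 6.11 in TDESM. Syt1, Rbfox3, Stmn2, Nefl, Gfap and S100b were near background in both strains. The list's array means were 4.64 to 4.95 in TDECC and 4.24 to 4.39 in TDESM, and its part in these 4 values was not tested.

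**Figure D5:**
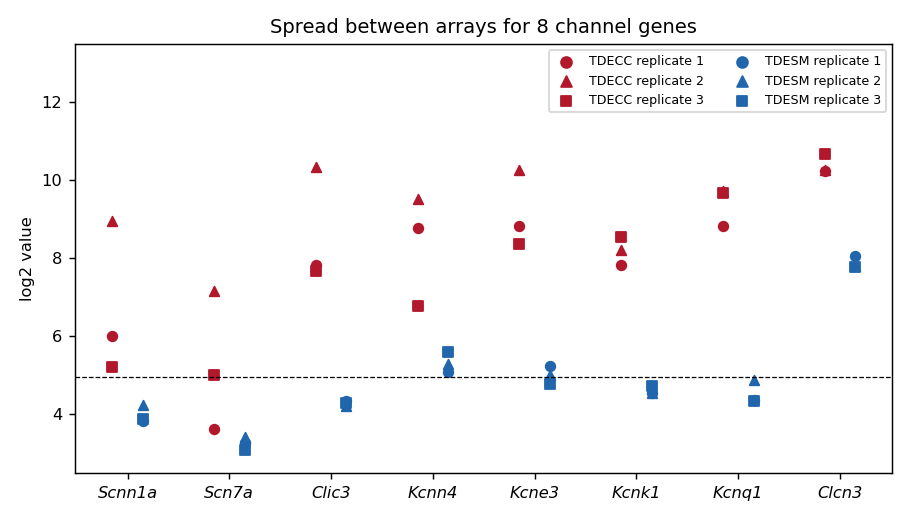
Log2 value (y axis) on each TDECC array (left of each tick, red) and each TDESM array (right, blue) for 8 channel genes (x axis), with a marker shape for each replicate and the near-background level dashed. Scnn1a, Scn7a, Clic3 and Kcnn4 vary by 2 or more between TDECC arrays, with replicate 2 on top, while Kcnk1 and Clcn3 vary little.

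Channels with other names and the proteins that work with channels were listed to set these genes in context. Of 41 other cation and anion channels 7 were higher in TDECC and 7 lower (34.1% passed, against 42.7% of all genes). Ano1, the calcium-activated chloride channel of secretory epithelia, read 10.20, 11.00 and 10.15 in TDECC, against 4.86, 4.87 and 4.22 in TDESM. Cftr, the cyclic AMP-regulated chloride channel of bile ducts, read 8.49, 7.61 and 8.58 in TDECC, against 3.64, 3.75 and 3.54 in TDESM. Both chloride channels were far above the TDESM arrays, by 5.80 and 4.58. Pkd2, a cation channel of primary cilia, read 6.01, 4.87 and 5.92 in TDECC, against 10.71, 10.78 and 10.47 in TDESM (difference -5.05), and its partner Pkd1 differed by -1.70. Without TDESM replicate 2 only 4 were higher, and without TDESM replicate 2 or 3 only 4 were lower.

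Of 21 genes of calcium release, store-operated entry and calcium export 4 were higher in TDECC and 6 lower. That is 47.6% past the threshold, against 42.7% of all genes, and Ryr3 among the lower was near background in both strains. Slc8a1, the sodium-calcium exchanger of contractile cells, read 3.50, 3.21 and 3.50 in TDECC, against 9.96, 10.11 and 10.08 in TDESM. It was near background throughout TDECC, and the difference was -6.65 (adjusted p = 1.47e-07). Itpr1, a calcium release channel of the endoplasmic reticulum, differed by -1.25. Atp2b1, a plasma membrane calcium pump, differed by 2.07 and Mcu, the pore of mitochondrial calcium uptake, by 1.53.

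Of 11 regulators of the epithelial sodium channel 4 were higher in TDECC and 3 lower (63.6% passed, against 42.7% of all genes). Prss8, a channel-activating protease, stood at 7.86 ± 0.42 in TDECC and 4.34 ± 0.29 in TDESM (SD, n = 3), a difference of 3.53. St14, the protease matriptase that activates Prss8, differed by 5.54. Tsc22d3, a glucocorticoid-induced gene, differed by -1.92 and Cnksr3, a scaffold of the channel's kinase, by -1.55.

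Of 12 measured potassium channel partners 1 was higher in TDECC and 5 were lower. Akap9, a scaffold of Kcnq1, differed by 1.62, while Kctd12, a subunit of GABA-B receptors that couple to potassium channels, differed by -5.67 and Abcc9 by -3.93. Of 12 pumps and cotransporters 2 were higher in TDECC and 2 lower (33.3% passed, against 42.7% of all genes). Fxyd3, a regulator of the sodium pump, differed by 3.23 and its relative Fxyd5 by -3.64. Slc12a2, which loads chloride into secretory cells, differed by 1.31, and Slc12a4, which lets potassium and chloride leave, by -1.66. Leaving out any 1 array other than TDECC replicate 2 left 1 gene higher in this list, and leaving out that array gave 4. An exact two-sided permutation test of 3 against 3 arrays cannot go below p = 0.1 for a single gene, which each non-overlapping gene above reaches.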

How the data were processed

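The authors deposited log2 expression values of 31099 probe sets on 6 arrays, made with RMA per the submitters' processing notes; no RMA version is stated in the labels. Per the labels' protocols, Trizol RNA was turned into biotinylated cRNA by the standard Affymetrix procedure. RMA as usually run equalises array distributions, which removes strain differences in total mRNA. The table holds no detection calls.

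Of the probe sets, 57 were controls, 20826 named 1 gene, 436 several (left out) and 9780 were not listed in the platform annotation. Entrez identifiers of 99.7% matched RefSeq (GRCr8), and 0 symbols changed. Each gene was read through the probe set of highest average value. Each gene was tested with limma 3.58.1 in R 4.3.3 (lmFit, eBayes), TDECC minus TDESM, two-sided, Benjamini-Hochberg over 14217 genes, threshold 0.05; probe sets were fitted likewise over 31042. Limma was tested on simulated data.

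Named genes are the up to 3 largest differences each way per family, 6 bright genes and a fixed list; up to 2 genes each way came from other lists, with some added after their values were seen. Members, lists and motifs were chosen with earlier results of these data known. Alternatives were other scalings, filters, probe set rules, variance models, a replicate block and leaving out each array.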

Additional observations from a re-analysis of the deposited data

How the results depend on the processing

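Counts of channel genes (14 higher and 16 lower in TDECC) stayed within 1.5 times under cyclic loess, the mean of all probe sets, trend and robust eBayes, and a minimum log2 difference of 1. They also did when each array was left out in turn (11 to 17 higher, 13 to 18 lower; 36 to 47 channel probe sets passed, against 43 with all arrays; 4605 to 6437 of all genes, against 6065). With the replicate number as a block, 15 were higher and 15 lower, 27 of them shared with the 30; Kcnd2, Cacnb4 and Clcn5 were lost, and Scn7a, Trpv6 and Clic2 were gained. The numbers were not taken as pairs, since deviations of same-numbered arrays correlated at -0.067, 0.022 and -0.143. Centred on housekeeping genes, of which 6 of 10 themselves differed by limma, 28 were lower. Without the dimmest genes by mean, 40 channel genes were left to test and 8 were lower. Centred on the poly-A controls, which read 7.38 in TDECC and 8.61 in TDESM, 127 were higher and 6 lower, 213 probe sets passed and 11771 of all genes did, 10873 higher and 898 lower. With a minimum log2 difference of 1, 3625 of all genes passed. The poly-A centring reversed the sign of 7 of the 30 genes: Cacnb3 (0.21), Clcn4 (0.0579), Kcnab2 (0.56), Kcnip3 (0.66), Kcnmb4 (0.0512) and, near background, Clcn5 (0.67) and Scn2a (0.53). Among genes that had not passed it also turned others, such as Piezo2 (0.94), Trpm7 (0.72) and Kcnk2 (0.96). This centring added 1.22 to every difference, so the 14 genes higher in TDECC could not turn. It kept 20 of the 30 genes past the threshold, with 0 of the 20 turned. All 10 genes lost were among the 16 lower in TDECC. Of those 16, 6 stayed lower and past the threshold, among them Kcnk12 and Cacna1c. In the other lists it gave 34 higher and 1 lower among other channels, 15 and 1 among calcium genes, 10 and 1 among pumps, 8 and 0 among sodium channel regulators, and 6 and 3 among potassium channel partners. The cause of these shifts was not tested. The number of channel genes near background in both strains was 48, 83 and 96 with the level at the 90th percentile, the 99th percentile and the median of all probe sets.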
